A study of Drosophila melanogaster with 9 samples.

Results

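The piRNA clusters of the left arm of chromosome 2 were followed through male germline development in Drosophila melanogaster testes. They were taken as every line of the deposited cluster tables whose name begins with 2L or 2LHet, which gave 11 clusters (9 on 2L and 2 on 2LHet, the heterochromatic arm section) of 99 in all. All 11 had enough reads to be tested. Testes of 5 genotypes were compared, with 1 small RNA library each. The spermatogonia group held a bam mutant and a bgcn mutant library (n = 2), both from whole testes and labelled as early dividing germline cells. The spermatocyte group held a can mutant and a sa mutant library (n = 2), labelled as primary spermatocytes, from testes cut at the apical tip to take away the mitotic cells. A y w library came from whole testes with all stages from gonialblasts to mature sperm. No allele, animal number or age is stated for these libraries. A stage group pairs 2 different mutants, and every p-value below therefore sets the stage difference against a spread between mutants. In the fitted tests of single clusters, that spread was estimated with information from all 99 clusters. Stage, stock and the removal of the tip change together and cannot be told apart.

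PIWI-interacting RNAs (piRNAs) are small RNAs bound by Piwi proteins, which they direct against transcripts of transposons. Many are cut from long precursor transcripts of piRNA clusters, stretches of the genome filled with transposon fragments, which mostly lie next to or within the heterochromatin around centromeres. In the fly ovary, the locus at cytological position 38C on 2L is known as a germline cluster transcribed from both strands. The genes bam (bag of marbles) and bgcn (benign gonial cell neoplasm) are needed for germ cells to leave mitotic division. The genes can (cannonball) and sa (spermatocyte arrest) are testis-specific factors needed for the gene expression programme of spermatocytes and for entry into the meiotic divisions.

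Cluster-mapping reads numbered 11636 (sa) to 32654 (bgcn) per library and transposon-mapping reads 262757 to 580459. Each cluster is given by its share, its reads as a percentage of all cluster-mapping reads of that library, with 95% exact binomial intervals that cover counting error only. The bam library stood apart in composition, with a scaling factor by the trimmed mean of M-values (TMM) of 1.84 against 0.686 to 1.04 in the other 3 stage libraries. The tables hold small RNA reads and no mRNA, so the labelled cell types could not be checked against marker genes. In bulk testes, fewer cells of a type and less RNA per cell cannot be told apart.

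Coordinates are those of the deposited tables, whose genome build is not stated. Arm names such as 2LHet do not occur in the BDGP6 annotation used as reference, and 2 of the 11 clusters lie on that section, so no gene, exon or UTR annotation was set against the intervals. The 2L tip cluster (2L:2499-11131, 8633 bp) lies at the start of the arm. The distal 38C interval (2L:20104660-20118503, 13844 bp) and the proximal 38C interval (2L:20148259-20227581, 79323 bp) follow, with 29755 bp between them; the name 38C comes from the known place of that locus, not from the tables. The other 6 clusters on 2L lie towards its base and are called base a (2L:21544534-21575520), base b (2L:22258713-22292510), base c (2L:22369381-22420241), base d (2L:22420341-22452436), base e (2L:22489509-22556902) and base f (2L:22971156-22992887). Base c and base d are separated by 99 bp. On the heterochromatic section lie 2LHet left (2LHet:156077-219342) and 2LHet right (2LHet:336057-367088).

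The 11 clusters took a large part of cluster-mapping reads in every testis, and most of it came from 38C. Together they held 29.3% (bam), 38.5% (bgcn), 29.7% (can), 29.3% (sa) and 30.8% (y w) of cluster-mapping reads, although they span 9.37% of the length of all 99 clusters. The bgcn library was the high one and the other 4 lay close together. The means were 33.9 ± 6.50% for bam with bgcn and 29.5 ± 0.314% for can with sa (SD, n = 2 each). The groups overlapped, and an exact permutation test over the 4 libraries gave p = 0.667 (two-sided), where this design cannot go below 0.333. On this scale the U clusters, on sequence placed on no chromosome, held 5.76 ± 0.277% for bam with bgcn and 21.0 ± 3.60% for can with sa (SD, n = 2 each). Without them in the total, the mean log2 difference of the summed 2L share (spermatocyte minus spermatogonia) went from -0.19 to 0.07.

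The 2 intervals at 38C made up 2.02% of the total cluster length and were the main source of reads on the arm. Their summed share was 23.2% in bam (22.7 to 23.8), 35.0% in bgcn (34.5 to 35.5), 24.3% in can (23.7 to 24.8), 26.6% in sa (25.8 to 27.4) and 26.8% in y w (26.1 to 27.4). Both spermatocyte libraries and y w lay between the bam and the bgcn library. Of all reads of the 11 clusters, 38C supplied 79.3% (bam), 90.8% (bgcn), 81.7% (can), 90.9% (sa) and 86.9% (y w). In this measure bam went with can and bgcn with sa, across the stage groups.

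The distal 38C interval was the denser of the pair and differed between mutants of the same stage. It had 2002 reads in bam, 7022 in bgcn, 1721 in can, 2105 in sa and 2836 in y w, or shares of 9.57%, 21.5%, 7.97%, 18.1% and 15.4%. It was high in bgcn and sa and low in bam and can, so each stage group held 1 high and 1 low library. Its share in bgcn was 2.25 times that in bam and its share in sa 2.27 times that in can, and in both cases the counting intervals were far apart. By share it ranked 1 of 99 clusters in bgcn, sa and y w, 3 in bam and 4 in can.

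The proximal 38C interval had 2861 reads in bam, 4400 in bgcn, 3517 in can, 991 in sa and 2083 in y w. Its shares were 13.7%, 13.5%, 16.3%, 8.52% and 11.3%. By share the spermatogonia libraries were alike, the smallest bam to bgcn difference among the 99 clusters, while can lay 1.91 times above sa. On the TMM scale the spermatogonia libraries were not alike, with bam at 74363 and bgcn at 135599. The scaled values of can and sa were 226630 and 107536. The cluster ranked 1 in bam and can, 2 in bgcn and y w, and 3 in sa.

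The balance between the 38C intervals differed between libraries, and the stage groups overlapped. The distal interval supplied 41.2% of 38C reads in bam (39.8 to 42.6), 61.5% in bgcn (60.6 to 62.4), 32.9% in can (31.6 to 34.1), 68.0% in sa (66.3 to 69.6) and 57.7% in y w (56.3 to 59.0). No 2 of the 5 counting intervals overlapped, and the order from low to high was can, bam, y w, bgcn, sa. As a log2 ratio of distal to proximal reads, the balance was 0.08 ± 0.84 for bam with bgcn and 0.03 ± 1.5 for can with sa (SD, n = 2 each), with an exact permutation p = 1. Without can the difference of this log2 ratio between the groups was 1.01, and without sa it was -1.11. This ratio is taken within a library and does not depend on scaling. Each library is a single mutant or stock without a replicate, so the spread between libraries of the same genotype is not known.

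**Figure D1:**
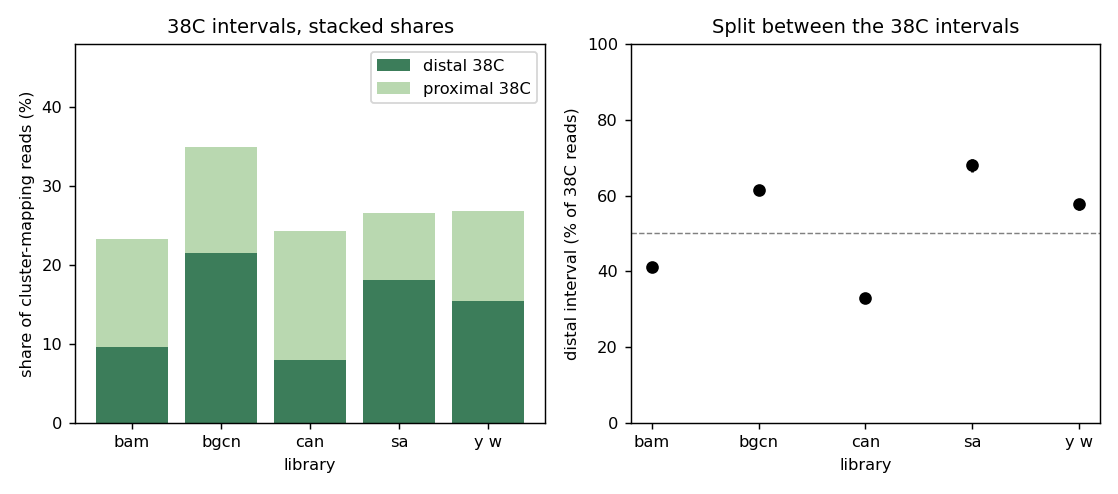
Left, stacked bars show the share of cluster-mapping reads (%) held by the distal and proximal 38C intervals in each of the 5 libraries. Right, points show the distal interval as a percentage of 38C reads with 95% exact binomial intervals, which are mostly smaller than the points, and a dashed line at 50; bam (41.2%) and can (32.9%) lie below the line and bgcn (61.5%), sa (68.0%) and y w (57.7%) above it.

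Per length, 38C stood far above the other clusters of the arm. The distal interval held 0.691% (bam), 1.55% (bgcn), 0.576% (can), 1.31% (sa) and 1.12% (y w) of cluster-mapping reads per kb, a density that ranked 1 or 2 among the 99 clusters in every library. The proximal interval held 0.172%, 0.170%, 0.205%, 0.107% and 0.143% per kb in the same order, with ranks from 3 to 8. The median density over all 99 clusters ran from 0.00379% (sa) to 0.0107% per kb (bam). The distal density was 4.01 (bam), 9.14 (bgcn), 2.80 (can), 12.2 (sa) and 7.80 (y w) times the proximal one. Among the 9 other clusters, 5 (can) to 8 (sa) exceeded the median density of their library, and their shares ran from 0.0430% (base f in sa) to 3.48% (base e in can).

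**Figure D2:**
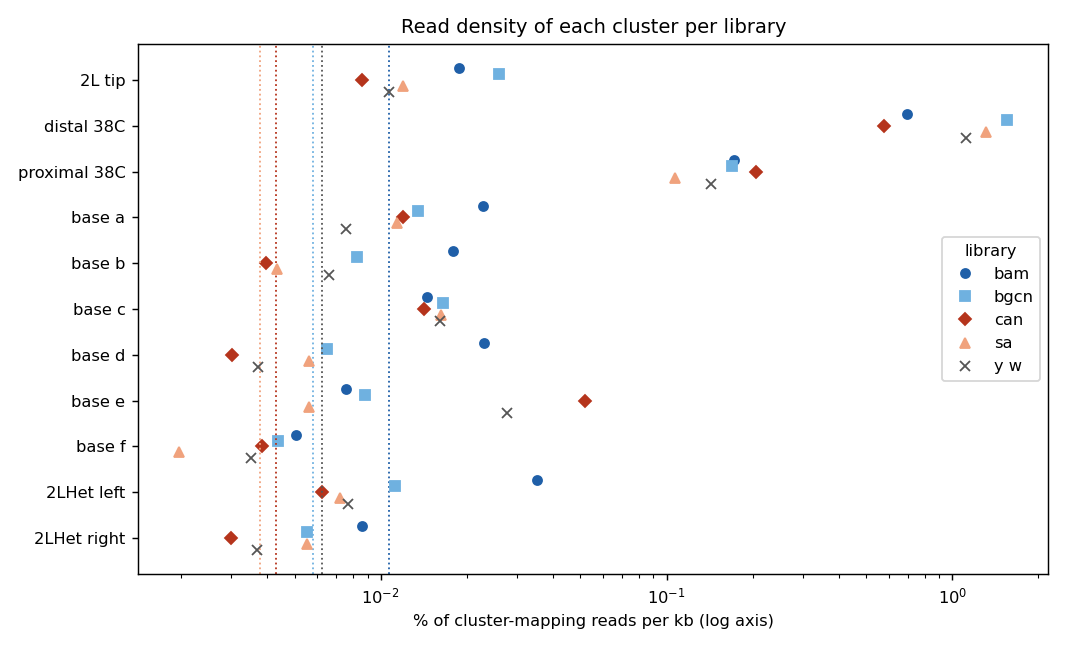
Read density of each cluster (% of cluster-mapping reads per kb, log axis) in the 5 libraries, with a dotted line at the median over all 99 clusters of each library. The distal 38C interval lies between 0.576% and 1.55% per kb and the proximal one between 0.107% and 0.205%; base e in can is at 0.0517%.

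Against the clusters of the X arm, the balance also overlapped between stages. Reads of the 2L and 2LHet clusters amounted to 1.15 (bam), 1.61 (bgcn), 1.44 (can), 0.977 (sa) and 1.69 (y w) times those of the 7 X and XHet clusters. The log2 ratio was 0.45 ± 0.34 for bam with bgcn and 0.24 ± 0.39 for can with sa (SD, n = 2 each, exact permutation p = 0.667). The flamenco cluster (X:21505666-21684449), a source of piRNAs in somatic cells of the ovary, had 2493 (bam), 4359 (bgcn), 1868 (can), 2067 (sa) and 1244 (y w) reads. Reads of the 38C intervals amounted to 1.95 (bam), 2.62 (bgcn), 2.80 (can), 1.5 (sa) and 3.95 (y w) times those of flamenco, so y w was the high library and sa the low one.

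None of the 11 clusters passed the stage test. In edgeR's quasi-likelihood test with TMM scaling, 0 of 11 passed an adjusted p of 0.05, against 1 higher (1.01%) and 0 lower (0%) of the 99 clusters tested. At an unadjusted p under 0.05, 1 of the 11 was higher (base e) and 0 lower, where 15.2% of all clusters were higher and 9.09% lower. DESeq2 called 1 of the 11 (base e, higher), against 13.1% of all clusters called higher. The log2 fold change (spermatocyte over spermatogonia) was positive for 7 of the 11 and negative for 4 (36.4% of them, against 52.5% of all 99), with a median of 0.24, beside a median of -0.11 over all 99. These signs depended on the scaling and on single libraries: 10 of the 11 were negative with library totals (against 76.8% of all 99) and with the authors' factors (84.8%). With TMM scaling the median of the 11 was -0.05 without bam and 0.44 without bgcn. It was 0.28 when can was left out and -0.38 when sa was. On simulated counts with the spread of these libraries, 34.8% of the 4-fold changes and 95.2% of the 16-fold changes were found, so differences of a few fold could be missed. False calls came to 0.6 and 0.65 per run. The changed clusters were drawn from all 99, so the rates are averages over the table and not rates for the 11. The simulated libraries shared 1 composition apart from equal numbers of raised and lowered clusters. These rates therefore do not cover the differences in composition between the real libraries.

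At 38C the fitted differences were smaller than their errors. The log2 fold change was 0.51 (SE 1.18, edgeR adjusted p = 0.751) for the distal interval and 0.73 (SE 1.01, adjusted p = 0.613) for the proximal one. With the pair summed into 1 locus it was 0.56 (SE 1.00, edgeR adjusted p = 0.697). The sign at 38C depended on the scaling, as both intervals were negative with library totals (-0.25 distal, -0.13 proximal) and with the authors' factors (-1.0 and -0.77). The authors' normalised signal summed over 38C was 4552 (bam), 9803 (bgcn), 3721 (can), 4007 (sa) and 6693 (y w), and on that scale both spermatocyte libraries lay below both spermatogonia libraries. The signal summed over all 99 clusters did the same, at 19582 (bam), 28026 (bgcn), 15341 (can) and 15059 (sa).

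With TMM scaling, base e had the largest fitted stage difference of the 11, and its size rested on the can library. With the authors' factors base e was at 1.15. Differences of larger size than that were fitted in the opposite direction, among them 2LHet left at -2.30 and base d at -2.28. Base e had 107 reads in bam, 194 in bgcn, 752 in can, 44 in sa and 343 in y w. The shares were 0.511% (0.419 to 0.618), 0.594% (0.514 to 0.684), 3.48% (3.24 to 3.74), 0.378% (0.275 to 0.507) and 1.87% (1.68 to 2.07). The can library stood high and sa was the lowest of all, so the groups overlapped, and y w lay between can and the rest. The share in can was 9.21 times that in sa, rank 3 of 99 clusters by the size of the can to sa difference. The log2 fold change was 2.59 (SE 1.03, edgeR adjusted p = 0.174) and 2.68 in DESeq2 (adjusted p = 0.0132). Without can it was 0.38 in edgeR with TMM scaling, 0.51 in DESeq2 and -1.23 in edgeR with the authors' factors. Without bam it was 2.21 in DESeq2.

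Base c was the steadiest cluster in the table by share, and its neighbour base d was not. Base c had 155 (bam), 274 (bgcn), 156 (can), 96 (sa) and 151 (y w) reads, at shares of 0.741%, 0.839%, 0.722%, 0.825% and 0.822%. The highest share was 1.16 times the lowest, the smallest such ratio among the 99 clusters, whose median was 4.65, and all 5 counting intervals overlapped. TMM scaling shifts the libraries relative to their totals, and the fitted stage difference of base c was 0.83 on the log2 scale with TMM (SE 0.57, edgeR adjusted p = 0.394) and -0.03 with library totals.

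Base d, 99 bp further on, had 154 reads in bam, 68 in bgcn, 21 in can, 21 in sa and 22 in y w. Its shares were 0.736%, 0.208%, 0.0972%, 0.180% and 0.120%, so by share bam stood 3.53 times above bgcn and the other 4 libraries lay at or below 0.208%. On the TMM scale base d was at 4003 in bam and 2096 in bgcn, closer together than by share. Reads of base d were 0.994 times those of base c in bam and 0.135 (can) to 0.248 (bgcn) times in the other libraries. The log2 fold change of base d was -0.67 (SE 0.57, edgeR adjusted p = 0.454), and with 1 library left out it ran from -1.35 (without sa) to -0.10 (without bam). How reads that map to several places were assigned is not given, so reads shared between clusters of like sequence leave single values uncertain.

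2LHet left was also highest in bam. It had 468 (bam), 232 (bgcn), 85 (can), 53 (sa) and 89 (y w) reads, or shares of 2.24%, 0.710%, 0.394%, 0.455% and 0.484%. Both spermatogonia libraries lay above both spermatocyte libraries, and by share bam was 3.15 times bgcn. The median share over all clusters was also higher in bam (0.382%) than in bgcn (0.220%). On the TMM scale 2LHet left was at 12164 in bam and 7150 in bgcn, closer together than by share. The log2 fold change was -0.69 (SE 0.54, edgeR adjusted p = 0.438), and it ran from -1.05 without bgcn to -0.23 without bam.

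By share, 6 of the 11 clusters had both spermatocyte libraries below both spermatogonia libraries, and 0 had both above. Over all 99 clusters the figures were 54.5% below and 13.1% above, so the 6 of 11 (54.5%) matched the table as a whole. The 6 were 2L tip, base a, base b, base d, base f and 2LHet left. After TMM scaling 2 of the 11 lay wholly above and 2 wholly below, against 26.3% and 33.3% of all 99. Those above were base a and base c, and those below were base b and 2LHet left. Base a was thus wholly below by share and wholly above after TMM scaling. The 2L tip, base d and base f overlapped after TMM scaling.

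The 2L tip had 34 (bam), 73 (bgcn), 16 (can), 12 (sa) and 17 (y w) reads, at shares of 0.163%, 0.224%, 0.0741%, 0.103% and 0.0925%. Its bgcn library was the highest, unlike base b, base d and 2LHet left, where bam was. Base b had 127 (bam), 91 (bgcn), 29 (can), 17 (sa) and 41 (y w) reads, at shares of 0.607%, 0.279%, 0.134%, 0.146% and 0.223%. The spermatocyte libraries were alike and by share bam was 2.18 times bgcn. On the TMM scale base b was at 3301 in bam and 2804 in bgcn, closer together than by share. Their log2 fold changes were -0.33 (SE 0.62, edgeR adjusted p = 0.722) for the tip and -0.63 (SE 0.43, adjusted p = 0.393) for base b.

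Base a had 148 (bam), 137 (bgcn), 80 (can), 41 (sa) and 43 (y w) reads, with shares of 0.707%, 0.420%, 0.370%, 0.352% and 0.234%. By share the bam library was high, and bgcn lay only just above the spermatocyte libraries, within counting error. On the TMM scale bam was instead the lowest of the stage libraries for base a. The scaled values were 3847 (bam), 4222 (bgcn), 5155 (can) and 4449 (sa). Base f had the lowest share of the 11 in bam, bgcn, sa and y w, and in can only the 2L tip was lower. It had 23 (bam), 31 (bgcn), 18 (can), 5 (sa) and 14 (y w) reads, at shares of 0.110%, 0.0949%, 0.0834%, 0.0430% and 0.0762%, all of whose counting intervals overlapped. 2LHet right had 56 (bam), 56 (bgcn), 20 (can), 20 (sa) and 21 (y w) reads at shares of 0.268%, 0.171%, 0.0926%, 0.172% and 0.114%, with the groups overlapping. These 3 had positive log2 fold changes with TMM scaling (0.34, 0.24 and 0.21, edgeR adjusted p from 0.566 to 0.751) and negative ones with library totals.

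**Figure D3:**
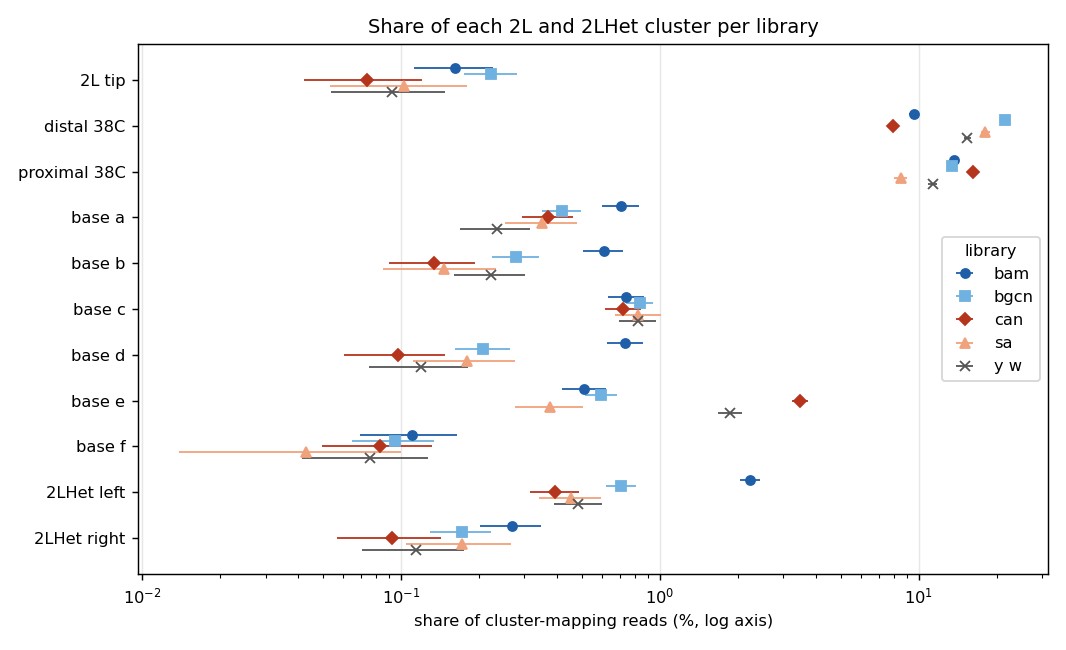
Share of cluster-mapping reads (%, log axis) of each 2L and 2LHet cluster in each library, with 95% exact binomial intervals for counting error. The 38C intervals lie between 7.97% and 21.5%, base e spans 0.378% to 3.48%, and the 5 points of base c lie within 0.722% to 0.839%.

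With the authors' factor per library as the scaling, 4 of the 11 clusters passed the edgeR test as lower in spermatocyte testes, against 48.5% of all 99. They were 2LHet left (log2 fold change -2.30, edgeR adjusted p = 0.00715), base d (-2.28, 0.00399), base b (-2.21, 0.00450) and the 2L tip (-1.82, 0.0286). When 1 library was left out, 1 call was made without bam and 3 were made without bgcn, while 0 were made in the absence of can or of sa. The calls in either direction over all 99 clusters fell with them, from 51 to 24, 40, 0 and 0 in that order. On that scaling all 99 clusters had a median log2 fold change of -1.58 and the 11 a median of -1.27. With library totals the medians were -0.93 and -0.65, and 0 of the 11 passed, against 4.04% of all clusters higher and 9.09% lower.

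**Figure D4:**
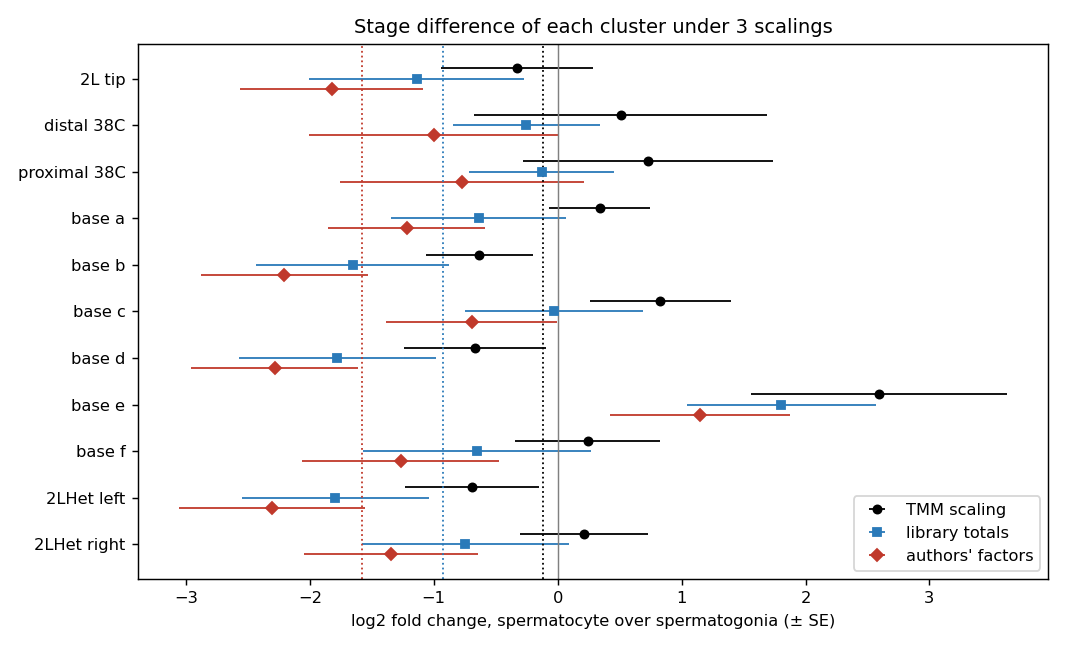
Log2 fold change (spermatocyte over spermatogonia, bars ± SE) of each cluster with TMM scaling, library totals and the authors' factors, with dotted lines at the median of all 99 clusters for each scaling (-0.11, -0.93 and -1.58). Base e is positive under all 3 scalings (2.59, 1.81 and 1.15), whereas 6 clusters change sign between TMM scaling and the other 2.

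The mutants of a stage group also differed from each other. Between bam and bgcn the median absolute log2 ratio of shares, with 0.5 added to each count, was 0.64 over the 11 clusters and 0.91 over all 99. Between can and sa it was 0.86 and 0.58. Without the added count, base d (-1.82) and 2LHet left (-1.65) had the lowest log2 ratios of bgcn over bam, and the distal 38C interval the highest (1.17). For sa over can, base e was lowest (-3.20) and the distal 38C interval highest (1.18).

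In the y w testis, 10 of the 11 shares (90.9%) fell inside the span of the 4 stage libraries, against 78.8% of all 99 clusters. The exception was base a, at 0.234% (0.169 to 0.315) below a lowest stage share of 0.352% (0.253 to 0.478, sa), with overlapping counting intervals. After TMM scaling 7 of the 11 fell inside that span and 4 below it (base a, base d, 2LHet left and 2LHet right), against 70.7% of all clusters inside. With 1 y w library no test was made.

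The clusters most like 38C in their pattern over the 5 libraries were found by likeness, the root mean square difference of log2 shares, each centred on its own mean. For the distal interval the nearest were 2R:21139959-21146679 (0.34), 2R:2144349-2386719 (0.38) and base c (0.46), where the median over all other clusters was 1.06. Base c was nearly flat by share, its highest 1.16 times its lowest, whereas the distal interval spanned 2.70 times. Its place among the nearest therefore need not mean a shared pattern. For the proximal interval they were 3LHet:992060-1090427 (0.18), base f (0.24) and 3RHet:1119639-1162411 (0.25), beside a median of 0.80. The neighbouring 38C interval was not among the nearest 3 for either of them. Some of these matches had few reads. The cluster 2R:21139959-21146679 had 10 (bam), 38 (bgcn), 9 (can), 6 (sa) and 10 (y w), and base f had 5 in sa. Counting error was not carried into the distances, so their order is uncertain. The distances describe 5 libraries and carry no test.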

How the data were processed

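Per the labels' protocols, testes were dissected by hand and TruSeq small RNA libraries prepared. Bowtie 1 and DESeq2 appear in the submitters' processing notes with no role. Genome build, read lengths and the treatment of multi-mapping reads are not stated there. The authors deposited raw read counts per cluster and a normalised signal, which equals the count times 1 factor per library (0.710 in can to 1.36 in y w) of unstated basis. Total and spreadsheet lines without a cluster name were left out. The aub and ago3 tables hold transposons only and were not used.

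All 99 clusters were fitted in edgeR 4.0.16 (R 4.3.3) with TMM scaling, the quasi-likelihood test and Benjamini-Hochberg adjustment at 0.05, on bam and bgcn against can and sa, keeping clusters with at least 10 reads in at least 2 libraries (99 of 99). Standard errors (SE) divide the log2 fold change by the square root of F. Alternatives were DESeq2 1.42.0, other scalings and leaving out each library. The test was checked on simulated counts (20 runs). Likeness, and the medians and ranks of log2 ratios between mutants of a stage group, used counts plus 0.5. Single ratios used the counts as they are. Exact permutation tests were two-sided. Values in every library are given for all 11 clusters; other clusters were named by likeness to 38C or as flamenco. The members, lists and rules were chosen with earlier results of these data known.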

Additional observations from a re-analysis of the deposited data

How the results depend on the processing

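Among the 11 clusters, 0 calls in edgeR became 4 with the authors' factors and 1 in DESeq2, and stayed at 0 under the other alternatives run. Leaving out each library (chosen after seeing the data) gave 0 to 3 calls with the authors' factors (0 to 40 over all 99) and 0 to 1 in DESeq2 (1 to 8 over all 99). Over all 99 clusters 1 call became 13 with library totals, 51 with the authors' factors, 8 with scaling by the transposon tables, 17 in DESeq2, 2 with the 38C intervals summed, and 0 (without bam) to 9 (without can) when a library was left out. No paired analysis was possible because the labels carry no replicate numbers.

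Signs turned as follows, and the cause was not tested. With library totals and the authors' factors the log2 fold changes were -0.25 and -1.0 (distal 38C), -0.13 and -0.77 (proximal 38C), -0.64 and -1.22 (base a), -0.031 and -0.69 (base c), -0.65 and -1.27 (base f), and -0.75 and -1.35 (2LHet right). With scaling by the transposon tables they were -0.059 (distal 38C), -0.35 (base a), -0.36 (base f) and -0.49 (2LHet right). With a library left out they ran from -0.86 to 0.44 (2L tip), -0.38 to 1.82 (distal 38C), -0.27 to 0.58 (base f) and -0.45 to 0.69 (2LHet right). With the authors' factors and a library left out, base e ran from -1.23 (without can) to 2.00 (without sa).

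The log2 difference of the summed 2L share (-0.19) was -0.46 per transposon-mapping read, 0.067 without the U clusters and -0.81 on the authors' signal, and -0.39 to 0.0078 with a library left out. That of 38C (-0.17) was 0.089 without the U clusters, -0.79 on the authors' signal, and -0.46 to 0.13 with a library left out. The log2 ratio of the 38C intervals ran from -1.11 to 1.01 and that of 2L to X from -0.48 to 0.076. Depth limits base f most, with 5 reads in sa.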
